A study of Mus musculus with 36 samples.

Results

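The bins described here were called middle replicating (M) in CH12 cells and early replicating (E) in both primary B cells and mouse embryonic fibroblasts (MEFs). They were chosen by their states in the 3 maps, so those states describe the choice and are not results. Of 123624 autosomal bins of 20 kb, 4987 met the rule, which is 4.03% of the autosomes and 99.74 Mb of sequence. A state in all 3 maps was given for 120754 bins, and the members made up 4.13% of these (Wilson 95% interval 4.02 to 4.24, which covers counting error only and treats neighbouring bins as independent). As the background of that count, 23.7% of the 120754 bins were E in both primary B cells and MEFs whatever their state in CH12 cells. Members made up 17.4% of those 28611 bins and 15.9% of the 31396 bins that were M in CH12 cells.

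The study measured replication timing in mouse B cells with Repli-seq, in which cells take up BrdU, are sorted into early and late S phase, and the labelled DNA of each fraction is sequenced. It asked how RIF1 and the MCM helicase set the replication timing of B cells, and deposited 36 libraries in 7 groups. The 8 libraries behind the B cell maps came from 2 groups, each with 2 early and 2 late libraries, and the other 5 groups, which carry Rif1 loss, Mcm6 depletion or both, were not analysed here. The shLacZ group is CH12, a line grown from a mouse B cell lymphoma, with intact Rif1, a lentiviral short hairpin RNA against the bacterial LacZ gene as the infection control, and IL4, CD40 and TGF beta stimulation in culture. The WT primary B group is activated splenic B cells of Rif1 wild-type mice without a hairpin. The labels tie the MEF map to no library of the series, and the study's list of data sets credits fibroblast Repli-seq reads to another source. CH12 is 1 clonal tumour line, and the age of the mice is not given in the labels.

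DNA is copied in S phase from many origins, and neighbouring origins fire at similar times, so that large domains replicate together. Early domains are generally rich in genes, GC and open chromatin, late domains are gene poor and often lie at the nuclear lamina, and the sequence between them is crossed by forks that leave early domains or holds origins that fire in the middle of S phase. Part of this programme differs between cell types and is set during differentiation. In this series the state of a bin comes from a segmentation of RT, which is early over late read density on the log2 scale, after smoothing over 300 kb, so a run of bins shorter than that span is not resolved from its neighbours. Each condition had 1 map made from merged replicates, so no spread between replicates could be given and no difference between maps was tested. Where on the RT scale one state gives way to the next was not known for these maps, and it need not be the same in each.

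The naming of the states was checked against gene density, which the maps did not use. Protein-coding gene starts per Mb were 18.9 in E, 8.45 in M and 3.79 in L (late) in CH12 cells. They were 17.7, 7.78 and 2.93 in primary B cells, and 16.1, 6.25 and 3.34 in MEFs. E and L touched in 0 places in each map, so the number called M was in all maps the state between the others.

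Sequence upstream of gene starts is shown for 5 genes of the member bins, because the members and 2 of the 3 classes most like them had different values for base composition and for the share of CpG-rich gene starts, as given with the values further on. Each stretch is the 250 bases before the annotated start, on the strand of the gene, in build mm9, and overlapped 0 annotated exons. CpG dinucleotides are in capitals. The genes were picked after their values were seen, to show starts with many and with few CpG. They are not the highest and lowest of the members.
Foxo1, chr3:52072009-52072258, plus strand: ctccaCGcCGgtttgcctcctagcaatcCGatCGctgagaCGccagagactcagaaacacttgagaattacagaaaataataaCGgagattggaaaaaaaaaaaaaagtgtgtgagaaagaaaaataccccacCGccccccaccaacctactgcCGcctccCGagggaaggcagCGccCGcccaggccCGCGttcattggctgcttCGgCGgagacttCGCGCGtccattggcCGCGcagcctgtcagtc
Lef1, chr3:130813139-130813388, plus strand: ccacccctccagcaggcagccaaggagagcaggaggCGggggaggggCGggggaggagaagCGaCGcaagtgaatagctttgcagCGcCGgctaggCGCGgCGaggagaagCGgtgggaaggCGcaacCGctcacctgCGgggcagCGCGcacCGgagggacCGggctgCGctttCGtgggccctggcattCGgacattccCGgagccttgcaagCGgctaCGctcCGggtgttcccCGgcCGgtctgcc
Hoxa5, chr6:52154587-52154836, minus strand: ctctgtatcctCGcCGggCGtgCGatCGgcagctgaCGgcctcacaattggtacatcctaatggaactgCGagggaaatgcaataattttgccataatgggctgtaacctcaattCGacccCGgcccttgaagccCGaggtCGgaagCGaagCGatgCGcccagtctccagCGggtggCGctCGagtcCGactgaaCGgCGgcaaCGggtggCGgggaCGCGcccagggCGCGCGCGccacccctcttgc
Ebf1, chr11:44430569-44430818, plus strand: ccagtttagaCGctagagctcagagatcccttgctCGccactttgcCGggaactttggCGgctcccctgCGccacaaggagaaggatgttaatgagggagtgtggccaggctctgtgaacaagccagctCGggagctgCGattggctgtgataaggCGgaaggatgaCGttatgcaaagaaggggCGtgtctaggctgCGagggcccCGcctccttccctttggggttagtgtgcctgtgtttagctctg
Ifna4, chr4:88487470-88487719, plus strand: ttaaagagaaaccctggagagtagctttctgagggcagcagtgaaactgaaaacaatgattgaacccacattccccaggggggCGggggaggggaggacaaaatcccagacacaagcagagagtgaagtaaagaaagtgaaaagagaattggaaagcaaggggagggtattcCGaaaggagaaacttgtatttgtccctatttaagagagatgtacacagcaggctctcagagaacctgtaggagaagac
Hoxa5 held 28 CpG, Lef1 26 and Foxo1 20 in these 250 bases. Ebf1 held 12. Ifna4 held 2. The rule set the states of all 5 starts, so these counts only describe how starts within the members vary.

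Merged with their neighbours, the 4987 bins formed 501 runs of 20 to 1220 kb, with quartiles of 60, 120 and 280 kb. The smallest gap between 2 runs was 80 kb. Runs of at least 300 kb, the smoothing span, numbered 117, and they held 57.8% of the member sequence. At the other end, 42 runs were 1 bin long and held 0.842% of it.

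The 10 longest runs spanned 860 to 1220 kb, summed to 9500 kb and held 84 protein-coding gene starts. The longest, chr18:38700001-39920000, was 1220 kb and lay beside sequence that was E in all 3 maps. It held Arhgap26, which encodes a GTPase-activating protein, over its whole 774.8 kb, together with Nr3c1, the glucocorticoid receptor, the growth factor Fgf1, and Spry4, an inhibitor of receptor tyrosine kinase signalling. All 39 bins that Arhgap26 overlaps were members.

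The run at chr3:103580001-104620000 was 1040 kb with 14 starts. Among them were Ptpn22, a phosphatase that restrains lymphocyte receptor signalling, Dclre1b, a nuclease that protects telomeres, the lactate transporter gene Slc16a1 and the small GTPase gene Rhoc. The kinase gene Hipk1 began in the run and ended in the flanking E domain. Of the 3 bins it overlaps, 2 were E and 1 was M in CH12 cells, while all 3 were E in the other maps.

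The run at chr1:39520001-40420000 was 900 kb and held the receptors for interleukin 1, Il1r1 and Il1r2, with the related Il1rl2 and the kinase gene Map4k4. Of the 3 bins of Il1rl2, 2 were M and 1 was L in CH12 cells. The run at chr8:10720001-11600000 was 880 kb and held Col4a1 and Col4a2, which encode the main chains of basement membrane collagen, and Irs2, an adaptor of insulin signalling. The run at chr5:64240001-65180000, 940 kb long, held Tbc1d1, a Rab GTPase-activating protein, and Pgm1, a phosphoglucomutase.

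Of the other long runs, that at chr2:172740001-173620000 (880 kb, 13 starts) held Bmp7, a secreted signal of the TGF beta family, Pck1, an enzyme of gluconeogenesis, Zbp1, a sensor of nucleic acids, and the germ line genes Spo11 and Ctcfl. Bmp7 crossed the edge of the run. Of its 5 bins, 5 were M in CH12 cells, 4 were E in primary B cells and 2 were E in MEFs. The run at chr8:36400001-37340000 (940 kb) held Eri1, a nuclease that trims histone mRNA, and Mfhas1.

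The remaining 3 of the 10 lay in CH12 M stretches with L on both sides. The run at chr19:56720001-57680000 (960 kb) held Adrb1, a receptor for adrenaline, Tdrd1, a germ line gene, and Ablim1, an actin-binding protein. The run at chr15:63460001-64340000 (880 kb) held 5 gasdermin C genes, Fam49b and Asap1. The run at chr9:40260001-41120000 (860 kb) held the chaperone gene Hspa8, the homeobox gene Bsx and the phosphatase gene Ubash3b.

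**Figure D1:**
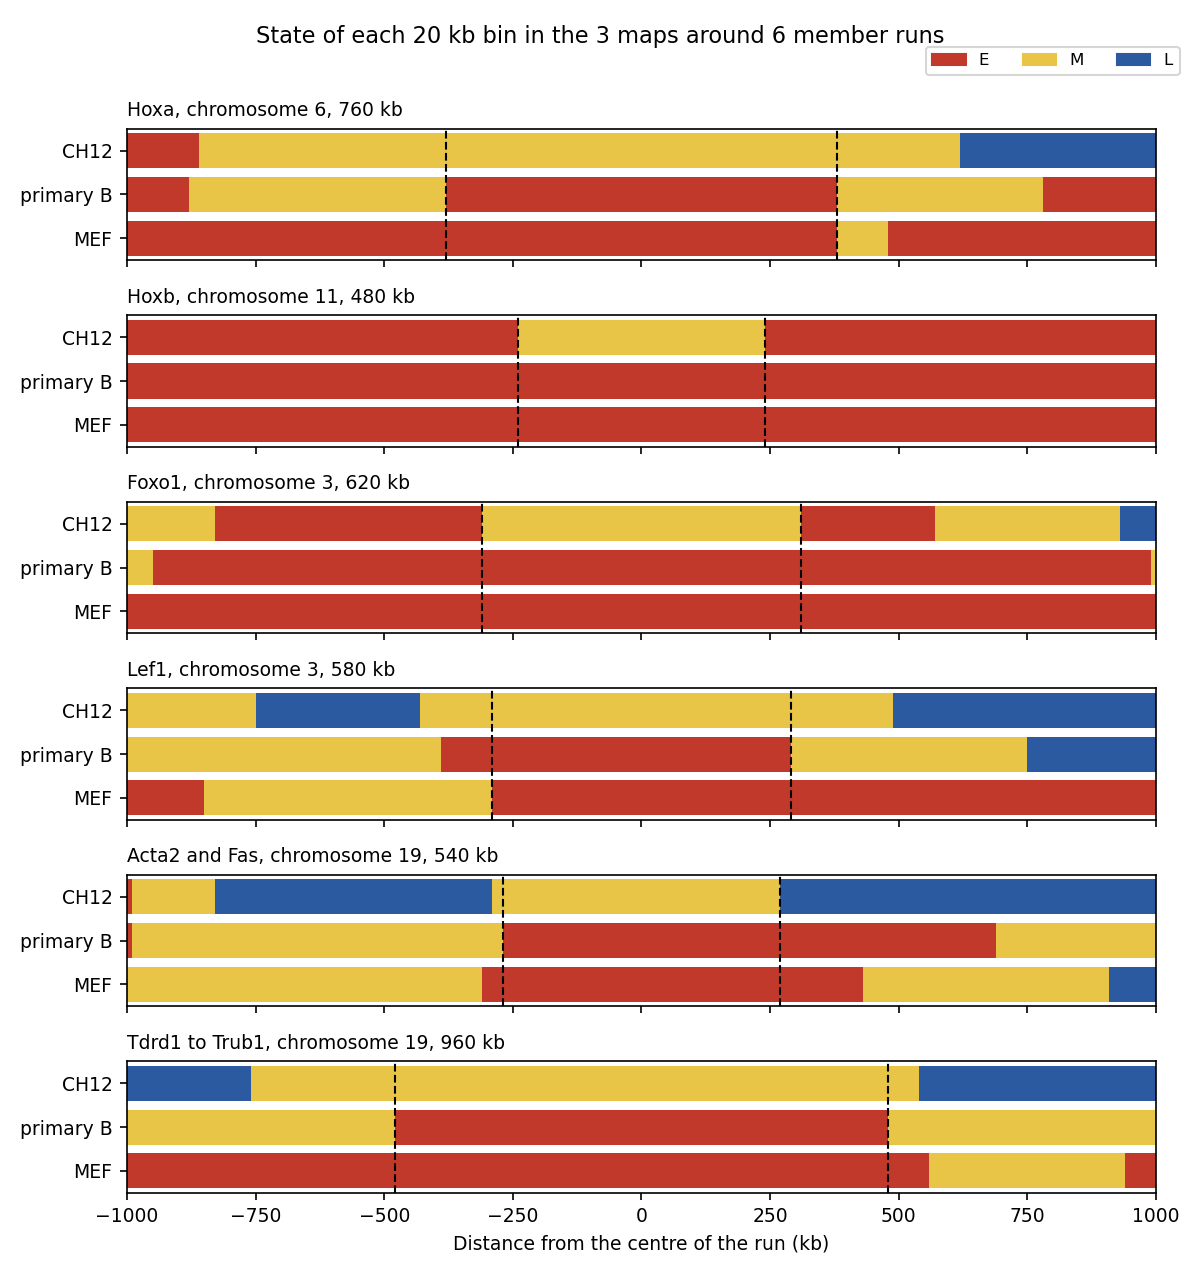
State of each 20 kb bin (E red, M yellow, L blue) in CH12 cells, primary B cells and MEFs around 6 member runs, by distance from the centre of the run in kb, with dashed lines at the ends of the run. The Hoxb and Foxo1 runs, of 480 and 620 kb, sit between E domains of CH12 cells, while those of Lef1, of Acta2 and Fas, and of Tdrd1 to Trub1, of 580, 540 and 960 kb, sit in M stretches between L domains.

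The runs fell into M stretches of different kinds in CH12 cells. Stretches with E on one side and L on the other held 294 runs and 52.5% of the member sequence. Stretches between 2 E domains held 135 runs (23.8%), and stretches between 2 L domains held 69 runs (23.3%). The other 3 runs lay in stretches at a chromosome end.

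Run length differed between these kinds. The median run was 100 kb in stretches between E and L, 120 kb between 2 E domains and 300 kb between 2 L domains. All CH12 M stretches of these kinds, with or without members, had medians of 300, 400 and 500 kb in the same order. A run cannot be longer than its stretch, so the run lengths are not independent of the stretch lengths. Among runs of at least 300 kb the share in stretches between 2 L domains was 33.3%, against 13.8% of all runs, and the share between E and L was 41.9% against 58.7%.

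Members were present in 465 of the 1241 autosomal M stretches of CH12 cells. Of the stretches between 2 E domains, 115 of 199 held members (57.8%), and members made up 23.1% of their bins. The values were 280 of 660 (42.4%) and 17.1% between E and L, and 67 of 349 (19.2%) and 11.2% between 2 L domains. A run filled its whole M stretch in 53 cases, and 46 of these were stretches between 2 E domains.

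The Hoxb run and the Foxo1 run were whole stretches of this kind. Foxo1, a transcription factor required for B cell development, and Maml3, a coactivator of Notch, started in the run chr3:51580001-52200000, which reached E domains on both sides in CH12 cells. Runx1, a transcription factor of blood cells, lay over its 224.6 kb in a run of 580 kb in a stretch between 2 E domains. The run chr2:71780001-72500000 (720 kb), with Cdca7, a gene associated with the cell division cycle, also lay between 2 E domains. Cdca7 is named after its values were seen.

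**Figure D2:**
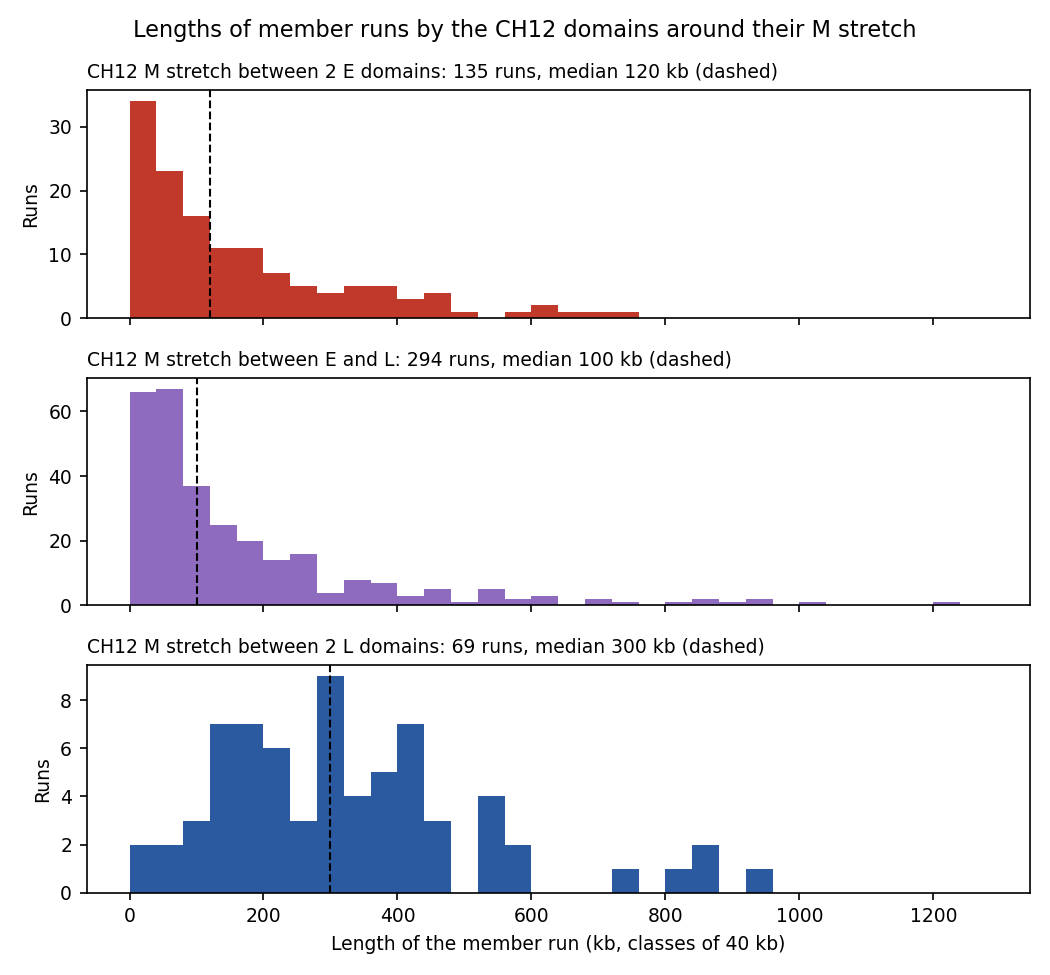
Number of member runs by length in kb, in classes of 40 kb, for runs in CH12 M stretches between 2 E domains, between E and L, and between 2 L domains. Medians (dashed) were 120, 100 and 300 kb; the vertical scales differ.

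The bins next to the runs were read in all 3 maps. Of 1002 run sides, 440 (43.9%) met bins that were E in all 3 maps, where the change was thus in CH12 cells alone. A further 368 (36.7%) met bins that were M in both B maps and E in MEFs, and 135 (13.5%) met bins that were E in primary B cells only. On 21 sides the next bin was L in CH12 cells and E in the other maps.

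Most runs bordered on sequence that CH12 cells also replicated early. Sequence that was E in all 3 maps lay on 1 side of 348 runs (median 80 kb) and on both sides of 46 (median 190 kb). It lay on no side of 107 runs, which had a median of 320 kb and held 37.7% of the member sequence.

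The E domains that held the members were also compared. Members lay in 377 of the 631 autosomal E domains of primary B cells, and these domains had a median of 940 kb, against 760 kb over all 631. In MEFs they lay in 332 of 567, with medians of 1360 and 960 kb. Longer domains have more bins to hold a member, so the difference in length was not independent of the choice.

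Within the 377 domains of primary B cells, CH12 cells had 1 E stretch in 231, 2 or more in 48 and none in 98. The largest number was 4. Within the 332 domains of MEFs the counts were 190, 66 and 76, and the largest number was 6. A single E domain of the other maps was therefore in some cases divided in CH12 cells by M sequence.

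In 72 runs, which held 25.4% of the member sequence, the E domain of primary B cells and that of MEFs both held 0 bins that were E in CH12 cells. Of these, 61 lay in M stretches between 2 L domains, and 43 were at least 300 kb long. Their median was 320 kb, against 100 kb for the 394 runs whose E domains held CH12 E bins in both maps. By definition, these 72 runs and the 69 between 2 L domains all belong to the 107 without a neighbour E in all 3 maps. The lengths of these groups are thus not separate results.

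These 72 runs included several of the named genes. The run of Lef1, a transcription factor of the Wnt pathway used in early lymphocytes, was chr3:130380001-130960000 (580 kb), inside a primary B E domain of 680 kb and a MEF E domain of 1420 kb. The run of Fas, a death receptor, and Acta2, the smooth muscle actin of contractile fibroblasts, was chr19:34140001-34680000 (540 kb, 11 starts). The run of Bcl10, a signalling adaptor of the B cell receptor, was chr3:145520001-145960000 (440 kb) in a primary B E domain of the same 440 kb.

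Ebf1, a master regulator of the B lineage, began in the run chr11:44060001-44480000 (420 kb) in a CH12 M stretch of 1120 kb between 2 L domains. All 21 bins of the 390.8 kb gene were M in CH12 cells and all 21 were E in primary B cells. In MEFs 3 were E and 18 were M, so only the bins at its start met the rule. Smad1, a transducer of BMP signals, lay in a run of 420 kb of the same group, and the chromatin remodeller gene Chd2 in one of 480 kb.

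The density of gene starts in the members lay between those of bins M in all 3 maps and bins E in all 3 maps. The 4987 bins held 1221 protein-coding gene starts, 5.7% of the 21418 on autosomes with a state in all 3 maps, or 12.2 per Mb. Bins that were M in CH12 cells and E only in primary B cells (3459 bins) held 10.5 per Mb, bins M in both B maps and E in MEFs (6655) held 9.59, and bins M in all 3 maps (13082) held 8.49. Bins that were E in all 3 maps (23365) held 21.0 per Mb, and the value over all bins with 3 states was 8.87.

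Read by chromosome, the density of the members was above that of bins M in all 3 maps on 18 of 19 autosomes, the exception being chromosome 11. It was above that of bins M in both B maps and E in MEFs, called E only in MEFs from here on, on 15 of 19, and above that of bins E only in primary B cells on 14 of 19. Over chromosomes the mean differences were 4.00 ± 2.77, 2.70 ± 3.09 and 1.25 ± 4.64 per Mb (SD, n = 19 autosomes), so the last 2 were smaller than the spread between chromosomes. Against bins E in all 3 maps the members were higher on 2 of 19. Taken over all bins, the difference to bins E only in primary B cells was 1.79 per Mb, but 0.73 without bins up to 100 kb from a boundary and 0.19 in runs of at least 300 kb. That to bins M in all 3 maps was 3.75, 1.99 and 2.26 per Mb, and that to bins E only in MEFs was 2.65, 1.19 and 1.43, in the same order.

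Base composition followed a different order. Mean GC content was 44.3% in the members, 44.2% in bins E only in MEFs, 42.5% in bins M in all 3 maps, 42.2% in bins E only in primary B cells and 46.3% in bins E in all 3 maps. The members were above bins M in all 3 maps on 19 of 19 autosomes, with a mean difference of 1.77 ± 0.79 percentage points, and above bins E only in primary B cells on 18 of 19, with 1.88 ± 1.06. Against bins E only in MEFs they were higher on 11 of 19, with 0.14 ± 0.75, a difference below the spread. That difference changed sign when bins within 100 kb of a boundary were left out (-0.19 percentage points) and when only bins in runs of at least 300 kb were used (-0.13).

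**Figure D3:**
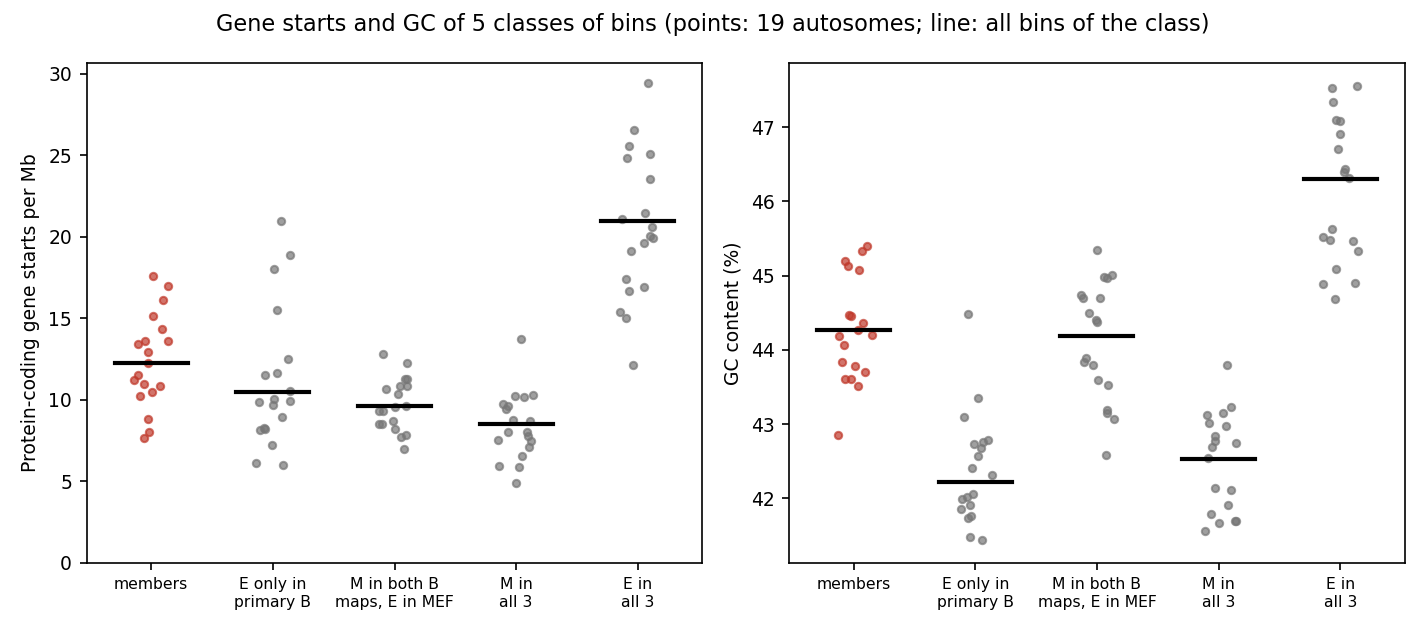
Protein-coding gene starts per Mb (left, axis from 0) and GC content in percent (right, axis not from 0) of 5 classes of bins, with 1 point for each of 19 autosomes and a line for all bins of the class. The members (red) had 12.2 starts per Mb and 44.3% GC, between bins M in all 3 maps (8.49 and 42.5%) and bins E in all 3 maps (21.0 and 46.3%).

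The CpG content of the bins, as the ratio of CpG observed to that expected from C and G, was 0.222 in the members, 0.215 in bins E only in MEFs, 0.197 in bins E only in primary B cells, 0.195 in bins M in all 3 maps and 0.231 in bins E in all 3 maps. Gene bodies covered 52.1% of the member sequence, against 48.9%, 47.3%, 41.0% and 60.01% in the same order. The median gene starting in a member bin was 24.0 kb long. That was 25.2 kb for bins E only in MEFs, but 17.7 kb for bins E only in primary B cells, 15.6 kb for bins M in all 3 maps and 15.2 kb for bins E in all 3 maps.

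A gene start was called CpG-rich where the 500 bases on each side had a GC content of at least 50% and a CpG ratio of at least 0.6. Of the 1221 starts in members, 692 were CpG-rich (56.7%), close to the 56.2% of bins E in all 3 maps. The share was 53.3% in bins E only in MEFs, 41.6% in bins E only in primary B cells, 38.7% in bins M in all 3 maps and 45.1% over all 21418. The members were above bins M in all 3 maps on 18 of 19 autosomes (mean difference 16.6 ± 14.0 percentage points) and above bins E only in primary B cells on 17 of 19 (14.99 ± 15.4). Against bins E in all 3 maps they were higher on 9 of 19.

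The genes of the printed sequences differed in these measures. In the window around its start, Foxo1 had a CpG ratio of 1.06 and a GC content of 68.1%, and Lef1 had 0.663 and 61.6%. Ebf1 had a ratio of 0.492 and was not called CpG-rich. Ifna4 had 0.0771. CpG-rich starts were 8 of the 12 Hoxa genes but 2 of the 10 Hoxb genes, and 0 of 6 interferon alpha and 0 of 5 gasdermin C genes.

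Gene starts were unevenly spread over the runs. Of the 501 runs, 160 held no protein-coding start, 94 held 5 or more and 21 held 10 or more, with at most 24. Runs with no neighbour that was E in all 3 maps held 13.6 starts per Mb, and 7 of the 107 were without a start. Runs with such a neighbour on 1 side held 11.6 per Mb, and 141 of 348 were without a start. Those enclosed on both sides held 10.6 per Mb, and 12 of 46 were without a start. These kinds differed in length, with medians of 320, 80 and 190 kb, and 156 of the 160 runs without a start were under 300 kb. Runs under 300 kb held 13.9 starts per Mb, against 11.05 in longer ones. Mean GC content was alike in the 3 kinds, at 44.2%, 44.3% and 44.5%.

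Around the edge of sequence that was E in all 3 maps, the starts averaged over 100 kb were fewer on the side of the members. Over the 100 kb before the 440 edges where CH12 cells alone left E, there were 16.3 starts per Mb, and over the 100 kb after them 12.6. GC content was 44.8% before and 44.4% after. At the 198 edges where primary B cells alone left E the starts were 14.2 and 9.46 per Mb, with GC of 45.9% and 45.4%. At the 229 edges where MEFs alone left E they were 15.2 and 11.8 per Mb, with GC of 44.8% and 43.8%. In the last bin before and the first bin after the CH12 edges there were 13.9 and 14.8 starts per Mb. The fall at CH12 edges was thus not a step at the edge itself. The values of these bins were 12.6 and 9.85 at the primary B edges, and 15.7 and 14.4 at the MEF edges. The drop over 100 kb was thus present whichever map left E. The 440 CH12 edges are sides of member runs, so their number follows from the states used to choose the bins. CH12 cells also had the least E, at 23.7% of autosomal bins, against 29.7% in primary B cells and 32.8% in MEFs. All these edges lie within the smoothing span, and windows were cut where the run ended.

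**Figure D4:**
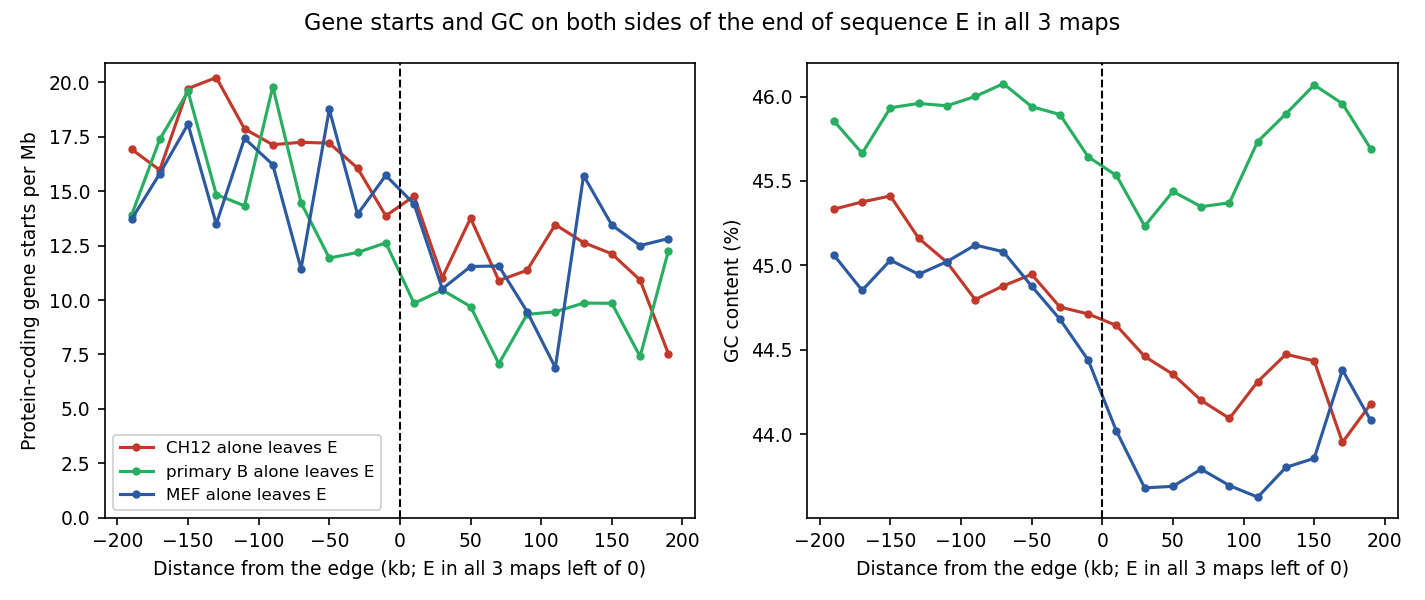
Protein-coding gene starts per Mb (left, axis from 0) and GC content in percent (right, axis not from 0) in 20 kb bins by distance in kb from the end of sequence that was E in all 3 maps, for edges where CH12 cells (440), primary B cells (198) or MEFs (229) alone left E. In the CH12 edges the starts were 16.3 per Mb over the 100 kb left of 0 and 12.6 over the 100 kb right of it.

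The members were spread over all 19 autosomes, but not evenly. Their share of bins was lowest on chromosome 12 (1.49%), 17 (1.78%) and 4 (2.16%), and highest on chromosome 19 (6.19%), 13 (5.83%), 18 (5.56%) and 3 (5.56%). As a share of the CH12 M bins of each chromosome, the values ran from 5.90% on chromosome 12, 8.52% on 17 and 9.96% on 4 to 20.9% on 8 and 21.5% on 3. Chromosomes 12, 17 and 4 were thus lowest on both scales. On the X chromosome the combination was found in 0 of 8333 bins, and 0 X bins were E in the MEF map, so none could meet the rule there. M in CH12 cells with E in primary B cells was given for 391 X bins.

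**Figure D5:**
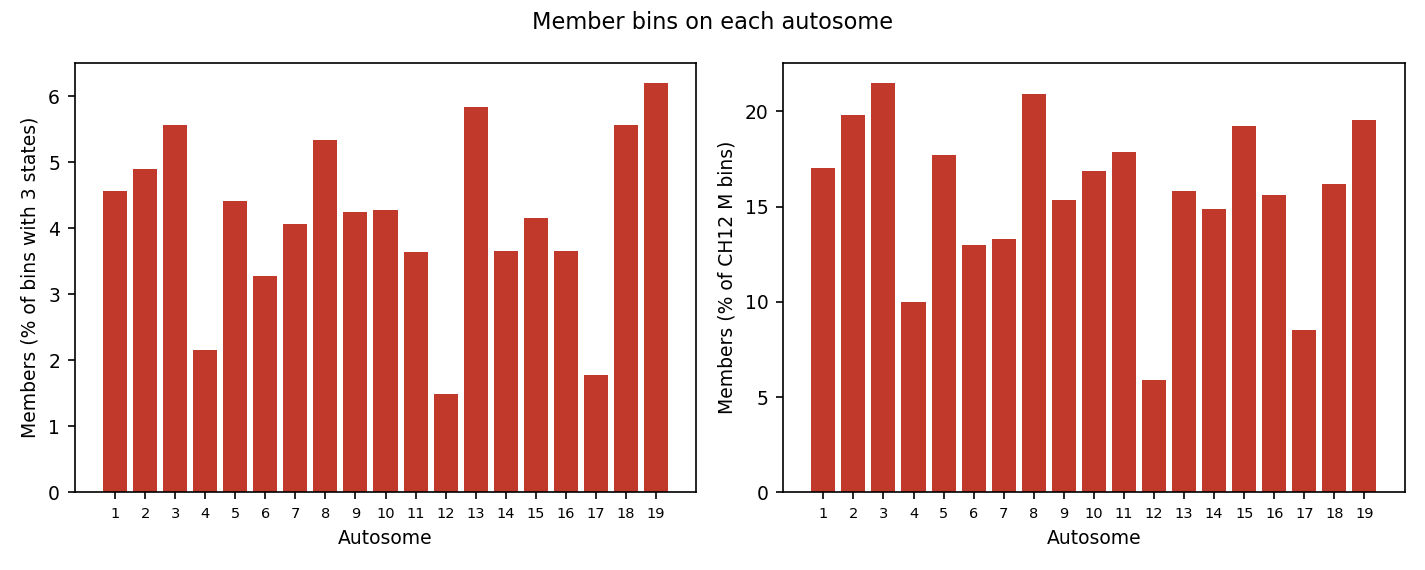
Member bins on each autosome as a percent of the bins with 3 states (left) and of the bins that were M in CH12 cells (right), both axes from 0. Chromosome 12 was lowest on both (1.49% and 5.90%), chromosome 19 highest on the left (6.19%) and chromosome 3 on the right (21.5%).

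Gene lists for B cells, replication and fibroblasts were placed by gene start. Their counts in members are set beside the 5.7% of all starts. For bins E in all 3 maps the background was 9804 of all 21418 starts. Of 54 B cell transcription factor genes placed, 4 started in members (7.41%), namely Ebf1, Foxo1, Runx1 and Lef1, while 35 (64.8%) started in bins E in all 3 maps. Of 49 genes of the B cell receptor and the B cell surface, 3 started in members (6.12%). Among them were Bcl10 and Plcg2, the phospholipase that acts downstream of the receptor. Of the 7 bins of Plcg2, all were M in CH12 cells and E in primary B cells, and 4 were E in MEFs.

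Of 41 fibroblast and matrix genes, 7 started in members (17.1%), and 13 (31.7%) in bins E in all 3 maps. The 7 were Col4a1, Col4a2, Col5a1, the intermediate filament gene Vim, Acta2, the matrix protein gene Fbln2 and the transcription factor gene Zeb1. Col4a1 and Col4a2 share 1 run, so the 7 genes lay in 6 runs. Col5a1 began in the last bin of a run of 180 kb, and of its 8 bins 8 were E in MEFs and 1 was E in primary B cells. Zeb1 overlapped 10 bins, of which 6 were E and 4 were M in CH12 cells, and all 10 were E in the other maps. The rule required E in primary B cells and in MEFs, so the shares of B cell and fibroblast lists are not independent of the choice. List genes starting in bins E only in MEFs were not counted, so the share is not shown to be particular to the members. The part of list choice and of gene clustering in these counts was not tested.

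Among genes that copy and repair DNA the shares were near the background. Of 39 origin licensing and firing genes, 2 started in members (5.13%), which were Cdc7, the kinase that activates the MCM helicase, and Topbp1, a firing factor. Of 43 genes of class switching and DNA repair, 2 did (4.65%), which were Mre11a, a nuclease of double-strand break repair, and Rev3l, the catalytic subunit of a translesion polymerase. Rev3l touched a run with its first bin alone, and 7 of its 8 bins were E in CH12 cells. Of 36 cell cycle genes, 3 did (8.33%), which were E2f3, E2f8 and Rbl2, all of the RB and E2F family of S phase regulators. All 5 bins of E2f3 and all 4 bins of Rbl2 were members.

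Of the other lists, members held the starts of 1 of 25 cell death genes (Fas), 1 of 46 signalling genes (Smad1), 1 of 44 chromatin genes (Chd2) and 0 of 27 T cell genes. Of 1081 olfactory receptor genes 12 started in members (1.11%), of 319 vomeronasal receptor genes 0, and of 67 histone cluster genes 1 (Hist4h4). The shares were 5.64% of 337 zinc finger genes, 5.83% of 343 solute carrier genes and 8.86% of 79 ribosomal protein genes.

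Some gene clusters lay in the members as a whole, and were named after their values were seen. The Hox genes encode the transcription factors that set position along the body axis and lie in 4 clusters. All 12 annotated Hoxa genes, of which 2 share the symbol Hoxa3, started in members in the run chr6:52100001-52860000 (760 kb, 16 starts). All 10 Hoxb genes did so in the run chr11:96000001-96480000 (480 kb, 12 starts). The 9 Hoxc genes were E in all 3 maps, and the 9 Hoxd genes were M in both B maps and E in MEFs. Hoxa and Hoxb thus shared the state combination, but not their surroundings. CH12 cells had E on both sides of the Hoxb run, and E on one side and L on the other of the stretch that held Hoxa.

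Of 11 interferon alpha genes, which encode antiviral cytokines, 6 started in the run chr4:88360001-88620000 (260 kb). The 5 gasdermin C genes lay in the chromosome 15 run given above. Genes of 1 cluster share a run, so such counts stand for 1 region each.

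Most of the 10 longest genes starting in members crossed the edge of a run. Each of them was longer than the median run of 120 kb. Of the 1221 genes, 39 were longer than 200 kb (3.19%), against 4.24% of genes starting in any bin with 3 states. The share was 1.31% in bins E in all 3 maps and 5.45% in bins M in all 3 maps. It was 4.70% in bins E only in primary B cells and 5.56% in bins E only in MEFs. Of the 10 longest, Arhgap26 lay in members along its whole length. The others met the rule in part. In Utrn, which encodes the dystrophin relative utrophin, 5 of 25 bins were members and 20 were L in CH12 cells. In Pard3, a cell polarity gene of 548.4 kb, 2 of 28 bins were members, and 26 were M in primary B cells. In Cdkal1 12 of 34 bins were E in CH12 cells, 3 were E in primary B cells and 10 were E in MEFs. In Bre, 12 of 20 bins were members and the other 8 were E in all 3 maps. In Maml3, 17 of 22 were members, and 5 were E in CH12 cells. In Atxn1 and Myo3b all bins were M in CH12 cells and E in primary B cells, with 8 of 22 and 5 of 21 E in MEFs, as in Ebf1. In Gtdc1, with 20 bins, 15 were M in CH12 cells, all 20 were E in primary B cells and 3 were E in MEFs.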

How the data were processed

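Per the study's methods, early and late Repli-seq reads were trimmed (Trim Galore 0.6.5), aligned to mm9 (BWA 0.7.17), filtered for unique alignments (SAMtools 1.9), merged over replicates and stripped of duplicates. The authors then took the log2 ratio of early over late reads in 20 kb windows, smoothed it by loess over 300 kb and segmented it into 3 states with a hidden Markov model; for MEFs the steps before segmentation are not given in the sources used here. The deposited maps hold 1 state number for each domain and neither RT values nor read depth, so the depth is unknown and replicate spread is lost.

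Domains were placed on 20 kb bins of the NCBIM37 reference (mm9), at whose chromosome lengths all 3 maps ended. Genes came from GENCODE M1 and were placed by their start. Wholly unknown bases filled 57 member bins, which were left out of GC values. Python 3.11.15 with numpy 2.4.6, pandas 2.3.3 and scipy 1.17.1 was used, and 6 of 6 checks on simulated data recovered the known answer. Classes were compared by value and by the number of autosomes with the same direction; with 1 map per condition no test was run. The members and the gene lists were chosen with earlier results of these data known. Of 415 list entries 404 were placed on autosomes by symbol or RefSeq synonym. Named genes are those of the 10 longest runs, list genes and the 10 longest genes starting in members; others are said to be named after their values were seen, and 1 list gene is not reported here. Alternatives left out unknown bins, chromosome ends, bins near boundaries or short runs and domains, added X, joined runs or stretches, and changed the gene type, the gene position and the GC summary.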

Additional observations from a re-analysis of the deposited data

How the results depend on the processing

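Of 47 values under 12 alternatives, 37 kept their direction and moved by less than the spread between chromosomes, the counting interval or 1.5 times a count. Some of the 37 could not have moved. Joining runs across up to 40 kb left 501 runs because the smallest gap was 80 kb, and X could add no member bin. For gene starts against bins E only in primary B cells, the spread of 4.64 per Mb exceeded the difference of 1.79. A fall to 0.19 there still counted as kept. Without the bins that lie up to 100 kb from a boundary, an alternative that removes bins by construction, there were 1838 member bins (2.56% of the bins kept), and adding chromosome X gave 3.87%. Runs of at least 300 kb alone numbered 117 with a median of 440 kb, 41.9% of them in stretches between E and L and 33.3% between 2 L domains. Counting all gene types gave 18.7 starts per Mb in members. The GC difference to bins M in both B maps and E in MEFs turned from 0.09 to -0.19 percentage points away from boundaries and to -0.13 in runs of at least 300 kb; the cause was not tested. The difference in gene starts to bins E only in primary B cells ranged from 0.19 to 1.85 per Mb, and that to bins M in all 3 maps from 1.99 to 4.97. No paired analysis was possible because the maps merge the replicates. The depth and the RT values at which states change are unknown, so a bin near a threshold in 1 map cannot be told from one far from it, and the smoothing span exceeded the length of 384 runs.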

Other observations

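The opposite combination, E in CH12 cells and M in both primary B cells and MEFs, was less common. It was given for 972 bins in 136 runs, against 4987 member bins, and the members were more numerous on 19 of 19 autosomes. These counts follow from the states used to choose the bins, and the maps differed in how much was E, at 23.7% of autosomal bins in CH12 cells, 29.7% in primary B cells and 32.8% in MEFs. The opposite bins held 160 protein-coding gene starts, or 8.24 per Mb, with a mean GC content of 43.9%, against 12.2 per Mb and 44.3% in the members. The combinations in which 1 of the other maps alone was M between 2 that were E held 1570 bins for primary B cells and 3204 bins for MEFs. Their densities were 10.3 and 12.3 starts per Mb, with GC contents of 45.2% and 43.4%. A difference of 2 states, L in CH12 cells and E in both others, was given for 259 bins in 28 runs, which held 41 gene starts. How far these counts depend on where each map sets its states was not tested.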
